A study of Mus musculus with 20 samples.

Results

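The early genes described here were the EGR transcription factor genes *Egr1*, *Egr2* and *Egr3*, the NR4A nuclear receptor genes *Nr4a1*, *Nr4a2* and *Nr4a3*, and the further early response genes *Ier2*, *Ier3*, *Atf3* and *Btg2*. They were chosen by name, with earlier results of these data known. All 10 were found by their Ensembl identifiers among the 43422 genes of each library. RNA was sequenced from the abdominal aorta of 20 mice on day 14 of infusion, with 5 samples in each of 4 groups, each taken here as 1 mouse because the labels number them separately and no pooling is stated. The groups were wild-type (WT) mice infused with saline, WT mice infused with angiotensin II (Ang II) at 1000 ng/kg per min, LH1 knockout (*Plod1-/-*) mice infused with saline, and *Plod1-/-* mice infused with Ang II at the same dose. The labels give the strain as C57BL/6, which the study's methods specify as C57Bl/6NCrl. They give an age of 6 months, whereas the methods state a younger age at the start of infusion. Every mouse, the saline controls included, carried a subcutaneous osmotic pump. *Plod1* encodes lysyl hydroxylase 1 (LH1), which modifies collagen before it is crosslinked, and the study's methods describe the knockout and WT mice as littermates of heterozygous parents. The samples were pieces of whole aortic wall, in which fewer cells of a type and less RNA per cell cannot be told apart. The comparisons ask how Ang II and the loss of LH1, alone and together, relate to the RNA of these genes.

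Early response genes are transcribed within minutes of a stimulus from factors that are already present in the cell, and their short-lived RNA normally falls back soon after. Serum response factor with its ETS partners acts through CArG boxes, and CREB, once phosphorylated, acts through cyclic AMP response elements (CRE). In the vessel wall, Ang II, growth factors, stretch and injury are all known to induce them, and so is the handling of tissue at dissection.

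Levels are given as FPKM, fragments scaled to transcript length and library size, as the authors normalized them. Differences are log2 differences on the log2(FPKM + 1) scale from limma, which understate the change of genes with low FPKM. A gene was counted as higher or lower when its Benjamini-Hochberg adjusted p over all genes tested was below 0.05 and its log2 difference was above 1 in size. *Plod1* ran from 22.8 to 29.7 FPKM in the 10 WT mice and reached at most 0.0415 FPKM in the 10 *Plod1-/-* mice, as their labels say. The smallest values gave a relative depth between 0.908 and 1.05 across the libraries. The defining smooth muscle genes of the aorta were present in every library, with a summed level of at least 2352 FPKM over 8 markers. The study's methods state that male mice were used, but *Xist*, the RNA of the inactive X chromosome of females, had an FPKM of 15.1 and 7.93 in 2 *Plod1-/-* libraries, saline-treated replicate 5 and Ang II-treated replicate 1, against at most 0.0328 FPKM in the other 18 libraries. The counts of members called that rest on these 2 libraries are also given without them, as are some values of *Egr2*, *Nr4a1* and *Btg2*. Another library stood apart in the members themselves: saline-treated WT replicate 1 had the highest level of its group in 9 of the 10 members.

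Promoter sequence from RefSeq (GRCm38.p6) was held for 7 of the members, *Egr2*, *Nr4a1*, *Nr4a2*, *Nr4a3*, *Ier3*, *Atf3* and *Btg2*. The 250 bases before each start site were searched on both strands for the CRE TGACGTCA, its core TGACG, which also lies inside every full CRE, the CArG box, the NR4A element AAAGGTCA, the EGR elements GCGTGGGCG and GCGGGGGCG, and the AP-1 element TGANTCA with C or G at N. The CRE core was found in 6 of the 7 members, all but *Ier3*, and in 8 of their 11 windows, against 17.8% of all 32851 windows of the same length. The 8 include overlapping *Egr2* windows that share the same 2 cores, so they are not 8 separate stretches. *Btg2* held the full CRE, found in 1.55% of all windows. *Egr2* held a CArG box, found in 1.47% of all windows, and *Nr4a1* held an EGR element, found in 3.06%. Neither the NR4A element nor the AP-1 element, in 1.34% and 4.46% of all windows, was found before any of the 7 members. The 5 windows shown here carry these matches and belong to genes that were called in the interaction of genotype and treatment. They are printed 5′ to 3′ on the strand of the gene, up to the first annotated exon, with CRE cores, the CArG box and the EGR element in capitals. They lie at chr10:67537619-67537868 (*Egr2*, 1 of its 5 RefSeq windows, chosen for its matches, plus strand), chr15:101266596-101266845 (*Nr4a1*, plus strand), chr2:57124004-57124253 (*Nr4a2*, minus strand), chr4:48045055-48045152 (*Nr4a3*, plus strand) and chr1:134079156-134079405 (*Btg2*, minus strand).
Egr2: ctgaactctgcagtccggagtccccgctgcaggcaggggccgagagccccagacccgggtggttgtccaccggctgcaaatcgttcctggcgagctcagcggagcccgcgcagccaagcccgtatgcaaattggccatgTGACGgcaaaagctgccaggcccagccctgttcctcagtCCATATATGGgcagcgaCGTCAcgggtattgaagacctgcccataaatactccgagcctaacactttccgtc
Nr4a1: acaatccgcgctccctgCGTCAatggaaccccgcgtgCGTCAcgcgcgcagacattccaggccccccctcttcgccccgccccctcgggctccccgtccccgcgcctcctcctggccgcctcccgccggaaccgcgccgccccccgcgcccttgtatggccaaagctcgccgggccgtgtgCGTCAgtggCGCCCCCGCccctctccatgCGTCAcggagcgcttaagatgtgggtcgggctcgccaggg
Nr4a2: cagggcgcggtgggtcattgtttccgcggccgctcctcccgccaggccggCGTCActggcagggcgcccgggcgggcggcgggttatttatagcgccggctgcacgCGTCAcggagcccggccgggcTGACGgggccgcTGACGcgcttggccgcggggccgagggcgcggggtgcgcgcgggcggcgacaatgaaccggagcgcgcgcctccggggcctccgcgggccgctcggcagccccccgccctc
Nr4a3: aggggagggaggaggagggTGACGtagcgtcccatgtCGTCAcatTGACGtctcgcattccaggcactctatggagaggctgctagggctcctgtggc
Btg2: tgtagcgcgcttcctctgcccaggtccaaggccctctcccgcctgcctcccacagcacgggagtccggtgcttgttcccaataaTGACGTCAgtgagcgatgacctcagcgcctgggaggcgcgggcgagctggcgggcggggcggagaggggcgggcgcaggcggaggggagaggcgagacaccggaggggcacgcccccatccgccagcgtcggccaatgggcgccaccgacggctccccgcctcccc
*Egr2* carried its CArG box between 2 CRE cores, *Nr4a1* carried 4 cores with the EGR element before the last of them, and *Nr4a2* carried 4 cores. *Nr4a3* carried 3 cores in the 98 bases shown. A match of letters says nothing of which factor was bound in these aortas.

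All 10 members had their lowest group median in Ang II-treated WT mice. In WT mice, 6 of the 10 members, *Egr1*, *Nr4a1*, *Nr4a3*, *Ier2*, *Ier3* and *Btg2*, were lower under Ang II and none was higher, against 2.28% of the 11994 genes tested that were called lower and 6.38% called higher. In *Plod1-/-* mice, *Egr2* and *Ier3* were higher under Ang II and no member was called lower (*Egr3* was under some alternatives), against 8.38% of 12333 genes called higher and 5.51% called lower. Between the Ang II-treated groups, 7 members, *Egr1*, *Egr2*, *Nr4a1*, *Ier2*, *Ier3*, *Atf3* and *Btg2*, were higher in *Plod1-/-* than in WT mice and none was lower, against 7.45% of 12356 genes called higher and 3.67% called lower. Between the saline-treated groups, *Nr4a3* alone was called, lower in *Plod1-/-* mice, against 0.408% of 11999 genes called lower and 0.358% called higher. The fitted difference between these groups was negative in every member, with a median of -0.99, against -0.007 over all genes tested. In the test of the interaction over all 20 mice, the difference between Ang II and saline was higher in *Plod1-/-* than in WT mice for 9 members, all but *Egr3*, and lower for none, against 9.69% of 13263 genes called higher and 6.36% called lower. Every member passed the filter on low values, 1 FPKM or more in 5 or more mice, in every comparison. Quantile normalization moved the median log2 difference of all genes between the Ang II groups from 0.12 to -0.04. With it the members called in the 5 comparisons were 6, 3, 7, 1 and 8, while the split of all genes called higher and lower moved from 920 and 453 to 733 and 632 between the Ang II groups, from 1034 and 680 to 887 and 880 in *Plod1-/-* mice, and from 1285 and 844 to 981 and 1146 in the interaction. The comparisons share groups, so their counts are not independent of each other.

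The values of single mice were also compared without a model. The 5 Ang II-treated WT mice lay below all 5 saline-treated WT mice in 8 members, all but *Ier3* and *Atf3*, where 6.88% of all tested genes did so. The 5 Ang II-treated *Plod1-/-* mice lay above all 5 Ang II-treated WT mice in 7 members, *Egr1*, *Egr2*, *Nr4a1*, *Nr4a2*, *Ier2*, *Ier3* and *Btg2*, where 10.4% of all tested genes did so. In *Plod1-/-* mice, the Ang II and saline groups overlapped in 8 members and were apart in *Ier3*, higher under Ang II, and *Egr3*, lower under Ang II, against 14.2% and 15.0% of all tested genes apart in these directions. Without both *Xist* libraries, the members called were again 2 in *Plod1-/-* mice, 7 between the Ang II groups and 1 between the saline groups, and 8 in the interaction, from which *Nr4a2* dropped out.

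**Figure D1:**
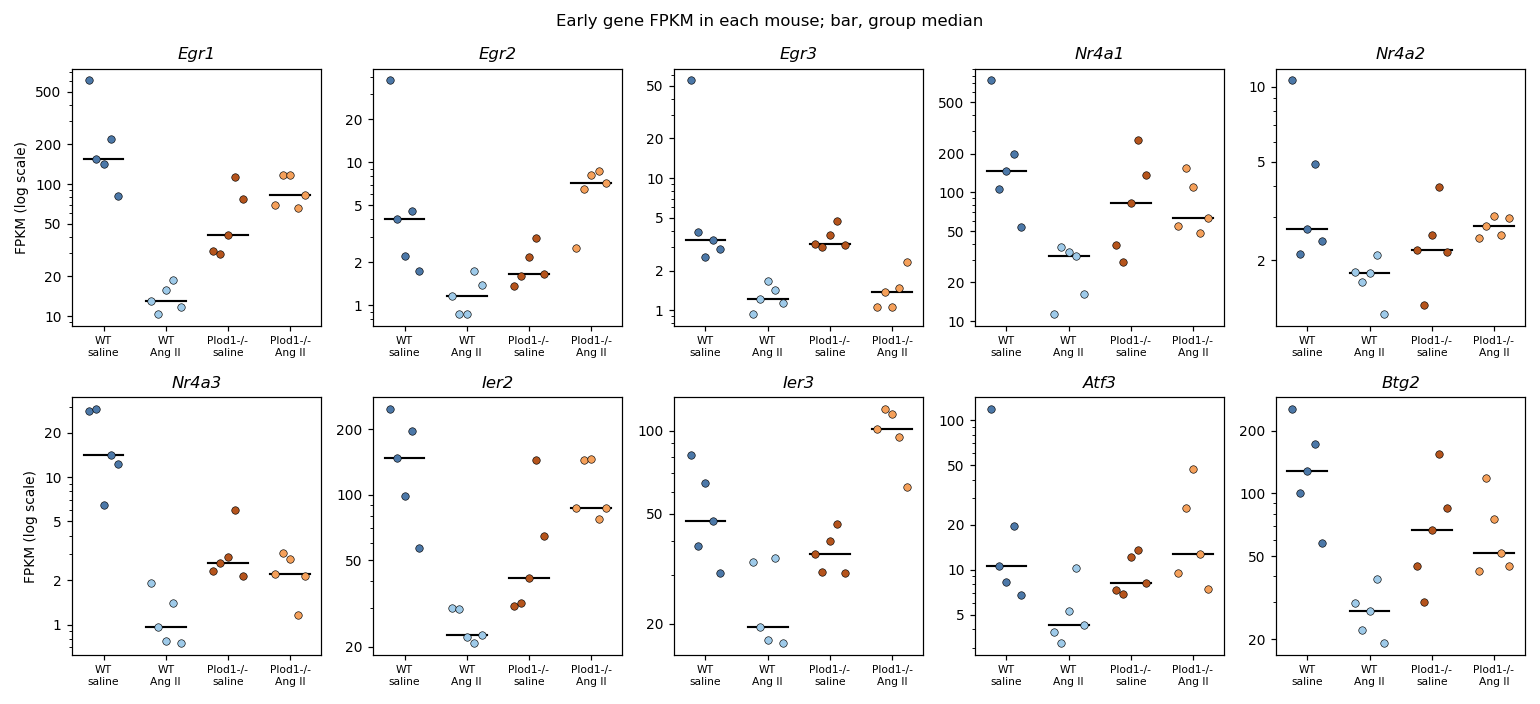
FPKM of each member in each mouse, on a log axis, with 1 point per mouse in replicate order and a bar at the group median. The Ang II-treated WT mice hold the lowest median in every panel, and saline-treated WT replicate 1 lies far above its group in *Egr2* (37.7 FPKM) and *Egr3* (55.0 FPKM).

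**Figure D2:**
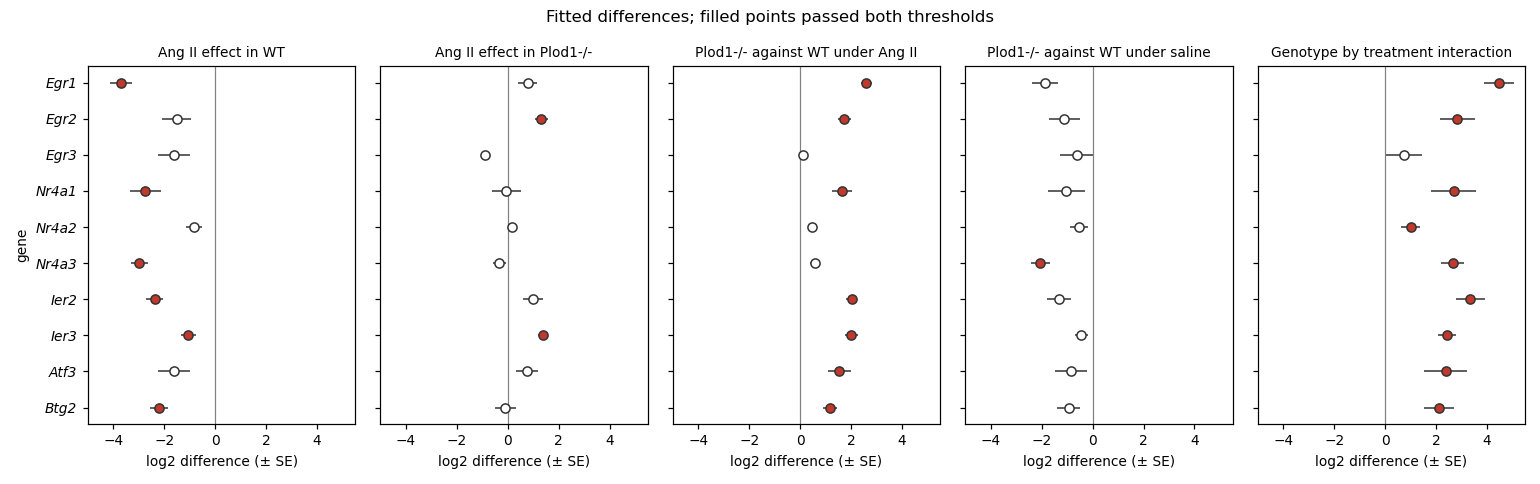
Fitted log2 difference of each member with its SE in the 5 comparisons, where a filled point passed the adjusted p of 0.05 and a log2 difference of 1 in size. The filled points lie left of 0 for 6 members in WT mice and right of 0 for 9 members in the interaction.

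*Egr1* (ENSMUSG00000038418, chr18:34859823-34864984, plus strand), the best known of the EGR zinc-finger factors and an activator of inflammatory and matrix genes in the vessel wall, had the largest difference of the 10 members in WT mice. Its FPKM was 611, 156, 141, 218 and 81.9 in saline-treated WT replicates 1 to 5, and 13.0, 10.4, 15.8, 18.8 and 11.8 in Ang II-treated WT replicates 1 to 5. It was 31.1, 29.4, 41.5, 113 and 77.5 in the saline-treated *Plod1-/-* mice and 69.6, 117, 117, 66.0 and 83.1 in the Ang II-treated *Plod1-/-* mice. Every Ang II-treated WT mouse was below every mouse of the other 3 groups, while those groups overlapped their neighbours in level. The difference between Ang II and saline was -3.70 (SE 0.42, limma adjusted p = 0.00181) in WT mice and 0.78 (SE 0.37, limma adjusted p = 0.108) in *Plod1-/-* mice, and only the former passed. The genotypes differed under Ang II by 2.60 (SE 0.21, limma adjusted p = 0.000154). Under saline the difference was -1.88 (SE 0.52, limma adjusted p = 0.0554), which missed the threshold. The Ang II difference of *Plod1-/-* mice minus that of WT mice was 4.48 (SE 0.60, limma adjusted p = 5.25e-05).

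*Egr2* (ENSMUSG00000037868, chr10:67535475-67542188, plus strand), a relative of *Egr1* with roles in Schwann cells, lymphocytes and macrophages, was a member that rose with Ang II in *Plod1-/-* mice. Its FPKM was 1.35, 1.60, 2.17, 2.94 and 1.65 in the saline-treated and 2.54, 6.54, 8.19, 8.78 and 7.22 in the Ang II-treated *Plod1-/-* mice. The Ang II-treated mice other than replicate 1 were all above the saline-treated mice, and replicate 1, which is also one of the libraries with *Xist* RNA, lay within their range. The difference was 1.32 (SE 0.27, limma adjusted p = 0.00264), and 1.55 (limma adjusted p = 0.000160) without both *Xist* libraries. In WT mice the FPKM was 37.7, 4.04, 2.22, 4.54 and 1.74 under saline and 1.16, 0.866, 0.870, 1.73 and 1.38 under Ang II. These groups were apart by a small gap, and the saline group was stretched upwards by replicate 1. The difference in WT mice was -1.52 (SE 0.58, limma adjusted p = 0.0577), just short of the threshold, and without saline-treated WT replicate 1 it was -0.86 (limma adjusted p = 0.0180). Under Ang II, *Egr2* was higher in *Plod1-/-* than in WT mice by 1.73 (SE 0.26, limma adjusted p = 0.00199), and the interaction was 2.84 (SE 0.69, limma adjusted p = 0.00433).

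*Egr3* (ENSMUSG00000033730, chr14:70077203-70082614, plus strand), needed for muscle spindles and induced by calcium signals in lymphocytes, had the largest fall of the members with Ang II in *Plod1-/-* mice, where the others shared no direction. Its FPKM was 3.20, 3.02, 3.74, 4.78 and 3.10 in the saline-treated and 1.06, 1.37, 1.06, 1.47 and 2.30 in the Ang II-treated *Plod1-/-* mice. All 5 Ang II-treated mice were below all 5 saline-treated mice. The difference of -0.90 (SE 0.15, limma adjusted p = 0.000983) passed on its p and stayed inside the log2 limit of 1, so it was not called. It was called lower with a pseudocount of 0.1, at -1.27 (limma adjusted p = 0.00106), with quantile normalization, at -1.09 (limma adjusted p = 0.000175), and without Ang II-treated *Plod1-/-* replicate 5, at -1.02 (limma adjusted p = 0.000460). In WT mice the FPKM was 55.0, 3.92, 2.53, 3.41 and 2.93 under saline and 0.936, 1.23, 1.65, 1.43 and 1.14 under Ang II, and the groups did not overlap. The difference there was -1.63 (SE 0.64, limma adjusted p = 0.0616), and without saline-treated WT replicate 1 it was -0.88 (limma adjusted p = 0.00581). Both Ang II-treated groups were thus at about the same level, with a genotype difference of 0.09 (SE 0.15, limma adjusted p = 0.660). The interaction was 0.72 (SE 0.71, limma adjusted p = 0.440), and it turned to -0.03 (limma adjusted p = 0.938) when saline-treated WT replicate 1 was left out.

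The balance of the EGR genes within a mouse was then compared, as a choice made after the values were seen. The log2 ratio of *Egr2* to *Egr3*, each as FPKM + 1, averaged -0.65 ± 0.11 (SD, n = 5) in saline-treated and 1.58 ± 0.55 in Ang II-treated *Plod1-/-* mice, and the groups did not overlap. The exact two-sided permutation p was 0.00794, the smallest that 5 against 5 mice can give (0.0159 after Benjamini-Hochberg adjustment over the 6 ratio tests made). In WT mice the same ratio was -0.16 ± 0.37 under saline and -0.06 ± 0.31 under Ang II, with an exact permutation p of 0.619 (adjusted 0.743). The mean ratio of *Egr1* to *Egr3*, also as FPKM + 1, moved in opposite directions in the genotypes. It went from 4.76 ± 0.87 to 2.69 ± 0.26 with Ang II in WT mice and from 3.52 ± 0.70 to 5.20 ± 0.52 in *Plod1-/-* mice, each with an exact permutation p of 0.00794 (adjusted 0.0159). *Egr3* was at 0.936 to 1.65 FPKM in Ang II-treated WT mice, so the added 1 weighs on these ratios. No other pseudocount was tried for them. In plain FPKM the WT groups overlapped in the ratio of *Egr1* to *Egr3*, through saline-treated WT replicate 1.

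*Nr4a1* (ENSMUSG00000023034, chr15:101254269-101274795, plus strand), an orphan nuclear receptor of smooth muscle cells and macrophages, was among the most abundant members and among the most variable within groups. Its FPKM was 741, 106, 146, 198 and 54.0 in the saline-treated and 11.3, 37.4, 34.5, 32.1 and 16.3 in the Ang II-treated WT mice. It was 39.0, 28.7, 83.0, 254 and 137 in the saline-treated and 54.7, 153, 109, 48.4 and 63.0 in the Ang II-treated *Plod1-/-* mice. All Ang II-treated WT mice were below all saline-treated WT mice and below all Ang II-treated *Plod1-/-* mice, and 1 saline-treated *Plod1-/-* mouse, replicate 2, lay within their range. In WT mice the difference was -2.74 (SE 0.59, limma adjusted p = 0.00663). The value in *Plod1-/-* mice came to -0.05 (SE 0.57, limma adjusted p = 0.951), with no direction that held when single mice were left out. Under Ang II the genotypes differed by 1.66 (SE 0.40, limma adjusted p = 0.0117), and the interaction was 2.69 (SE 0.88, limma adjusted p = 0.0224). With no filter on low values the interaction lost its call (2.69, limma adjusted p = 0.0612).

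*Nr4a3* (ENSMUSG00000028341, chr4:48045153-48086447, plus strand), the relative of *Nr4a1* that is readily induced in smooth muscle cells by growth factors, was the only member called between the saline groups. Its FPKM was 28.1, 28.8, 6.49, 14.0 and 12.2 in the saline-treated WT mice and 2.32, 2.62, 2.87, 6.00 and 2.15 in the saline-treated *Plod1-/-* mice. Saline-treated WT mice were above every mouse of the other 3 groups, and 5.30% of all tested genes lay apart in this way between the saline groups. The genotype difference under saline was -2.06 (SE 0.37, limma adjusted p = 0.0155), and without both saline mice with the highest member levels, WT replicate 1 and *Plod1-/-* replicate 4, it was -2.06 (limma adjusted p = 0.0347). With no filter on low values it kept its size but lost its call (-2.06, limma adjusted p = 0.0626). Under Ang II the FPKM was 1.92, 0.960, 0.776, 1.39 and 0.750 in WT mice and 2.22, 3.08, 2.77, 1.16 and 2.14 in *Plod1-/-* mice. The Ang II groups overlapped. The Ang II difference was -2.98 (SE 0.34, limma adjusted p = 0.00181) in WT mice and -0.32 (SE 0.24, limma adjusted p = 0.296) in *Plod1-/-* mice. The interaction was 2.66 (SE 0.45, limma adjusted p = 0.000294), to which the Ang II differences of both genotypes contribute, as in every member. *Egr2* and *Ier3*, called higher with Ang II in *Plod1-/-* mice, also had WT differences of -1.52 and -1.05 in their interactions.

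*Nr4a2* (ENSMUSG00000026826, chr2:57106830-57124003, minus strand), best known for its role in dopamine neurons, stayed at low levels. It ran from 2.12 to 10.6 FPKM in saline-treated WT mice and from 1.33 to 3.95 in saline-treated *Plod1-/-* mice. It ran from 2.45 to 3.03 FPKM in Ang II-treated *Plod1-/-* mice and from 1.22 to 2.10 in Ang II-treated WT mice. The last of these groups was below every saline-treated WT mouse and every Ang II-treated *Plod1-/-* mouse. The difference was -0.85 (SE 0.31, limma adjusted p = 0.0508) with Ang II in WT mice, 0.16 (SE 0.17, limma adjusted p = 0.463) with Ang II in *Plod1-/-* mice and 0.47 (SE 0.12, limma adjusted p = 0.0129) between the genotypes under Ang II, and none of these was called. The interaction of 1.01 (SE 0.38, limma adjusted p = 0.0426) passed by a narrow margin and was lost in 14 of the 20 fits that left out 1 mouse. Of the 10 other alternatives it kept its call in 4. Its call was lost with no filter, weights per mouse, quantile normalization or mitochondrial genes left out. The same held without the *Xist* libraries or without both highest saline mice. Without saline-treated WT replicate 1 it was 0.69 (limma adjusted p = 0.0454). The log2 ratio of *Nr4a1* to *Nr4a3* did not pass in either genotype, at 3.32 ± 1.30 (SD, n = 5) under saline and 3.56 ± 0.93 under Ang II in WT mice (exact permutation p = 0.778) and at 4.34 ± 1.03 and 4.62 ± 0.44 in *Plod1-/-* mice (exact permutation p = 0.587).

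*Ier3* (ENSMUSG00000003541, chr17:35821684-35822923, plus strand), a short gene whose product restrains cell death and NF-kB signalling, had the clearest rise in *Plod1-/-* mice. Its FPKM was 35.8, 30.9, 40.0, 45.8 and 30.6 under saline and 101, 119.6, 115, 95.0 and 62.7 under Ang II, and the groups did not overlap. The difference was 1.39 (SE 0.19, limma adjusted p = 0.000278) and was called in all 10 fits that left out 1 mouse. In WT mice the FPKM was 81.7, 38.4, 64.6, 47.1 and 30.6 under saline and 33.6, 19.6, 17.5, 34.8 and 17.1 under Ang II, and the groups overlapped. The difference of -1.05 (SE 0.29, limma adjusted p = 0.0178) was lost with no filter, and also in 5 of 10 leave-one-out fits, those without saline-treated WT replicates 1 and 3 and those without Ang II-treated WT replicates 2, 3 and 5. Under Ang II every *Plod1-/-* mouse was above every WT mouse, by 2.0 (SE 0.25, limma adjusted p = 0.00112), and the interaction was 2.44 (SE 0.36, limma adjusted p = 0.000131).

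*Ier2* (ENSMUSG00000053560, chr8:84661331-84662852, minus strand), a nuclear protein gene induced by growth factors, went with *Egr1* in the order of its groups. It ran from 56.7 to 247 FPKM in saline-treated WT mice, from 20.8 to 30.1 in Ang II-treated WT mice, from 30.7 to 144 in saline-treated *Plod1-/-* mice and from 77.3 to 145 in Ang II-treated *Plod1-/-* mice. The Ang II-treated WT mice were again below all other mice. *Ier2* fell with Ang II in WT mice by a log2 difference of -2.37 (SE 0.33, limma adjusted p = 0.00181) and was higher in *Plod1-/-* than in WT mice under Ang II by 2.03 (SE 0.21, limma adjusted p = 0.000585). Its rise with Ang II in *Plod1-/-* mice was 0.99 (SE 0.40, limma adjusted p = 0.0684), not called, and 1.35 (limma adjusted p = 0.00468) without saline-treated *Plod1-/-* replicate 4. The interaction was 3.35 (SE 0.55, limma adjusted p = 0.000259).

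*Atf3* (ENSMUSG00000026628, chr1:191170296-191218039, minus strand), a bZIP factor induced by many stresses, was the most uneven member among Ang II-treated *Plod1-/-* mice. Its FPKM there was 9.50, 26.0, 47.0, 12.8 and 7.38, against 3.81, 3.23, 5.29, 10.2 and 4.28 in Ang II-treated WT mice. *Plod1-/-* replicates 2 and 3 were above all of the WT mice by a wide margin, replicate 4 was just above them, and replicates 1 and 5 were below the highest WT mouse, replicate 4. The genotype difference under Ang II was 1.54 (SE 0.46, limma adjusted p = 0.0271). It was lost when Ang II-treated WT replicate 2, 3 or 5 or Ang II-treated *Plod1-/-* replicate 2 was left out, and with no filter. Under saline the FPKM was 119, 10.6, 8.21, 19.5 and 6.81 in WT mice and 7.28, 6.83, 12.1, 13.5 and 8.08 in *Plod1-/-* mice, so saline-treated WT replicate 1 was far above the other 9. With Ang II the difference was -1.61 (SE 0.64, limma adjusted p = 0.0637) in WT mice and 0.76 (SE 0.44, limma adjusted p = 0.183) in *Plod1-/-* mice, neither called, and the interaction was 2.38 (SE 0.83, limma adjusted p = 0.0316). The call of the interaction was lost with no filter on low values (2.38, limma adjusted p = 0.0821) and in 5 of 20 fits that left out 1 mouse, those without Ang II-treated WT replicate 2, saline-treated *Plod1-/-* replicate 1 or 2 and Ang II-treated *Plod1-/-* replicate 2 or 3. The small RNA gene Gm24748, on the other strand within *Atf3*, reached at most 0.356 FPKM in any mouse.

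Of 8 genes of the integrated stress response around *Atf3*, all tested, *Asns*, an asparagine synthetase and a target of ATF4, was higher with Ang II in both genotypes. Its difference was 1.64 (SE 0.28, limma adjusted p = 0.00258) in WT mice and 2.15 (SE 0.24, limma adjusted p = 0.000119) in *Plod1-/-* mice. *Chac1*, a glutathione-degrading enzyme, was higher with Ang II in *Plod1-/-* mice by 1.29 (SE 0.22, limma adjusted p = 0.00112). *Ppp1r15a*, whose product returns translation to normal after stress, was lower with Ang II in WT mice by -1.20 (SE 0.23, limma adjusted p = 0.00442). No gene of the list was called between the genotypes under Ang II or saline, and *Atf4* and *Ppp1r15a* were called higher in the interaction, at 1.17 and 1.20.

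*Btg2* (ENSMUSG00000020423, chr1:134075170-134079120, minus strand), an antiproliferative gene and target of p53, held the full CRE of the promoters shown. It ran from 58.1 to 254 FPKM in saline-treated WT mice, from 19.2 to 39.1 in Ang II-treated WT mice, from 30.2 to 154 in saline-treated *Plod1-/-* mice and from 42.5 to 118 in Ang II-treated *Plod1-/-* mice. The Ang II-treated WT mice were below all saline-treated WT and all Ang II-treated *Plod1-/-* mice, and overlapped the saline-treated *Plod1-/-* mice. The Ang II difference was -2.21 (SE 0.34, limma adjusted p = 0.00197) in WT mice and -0.09 (SE 0.42, limma adjusted p = 0.880) in *Plod1-/-* mice. Between the genotypes under Ang II it was 1.17 (SE 0.29, limma adjusted p = 0.0132), a call that was lost without Ang II-treated *Plod1-/-* replicate 2 (0.94, limma adjusted p = 0.0157). The interaction was 2.12 (SE 0.57, limma adjusted p = 0.00824). Of its 4 relatives of the BTG and TOB family, *Btg3* was the single gene called, lower with Ang II in WT mice (-1.25, SE 0.22, limma adjusted p = 0.00270) and higher in the interaction (1.01, SE 0.27, limma adjusted p = 0.00719).

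The spread between mice of a group was large, and in the saline groups 1 mouse was the highest in most members. In saline-treated WT mice the highest FPKM was 7.45 times the lowest for *Egr1*, 13.7 times for *Nr4a1*, 21.6 times for *Egr2* and 21.8 times for *Egr3*. Replicate 1 was the highest mouse in 9 members and replicate 5 was the lowest in 7. In saline-treated *Plod1-/-* mice, replicate 4 was the highest mouse in all 10 members and replicate 2 was the lowest in 6. The Ang II-treated groups were tighter in *Egr1*, where the highest value was 1.81 times the lowest in WT and 1.78 times in *Plod1-/-* mice. In *Plod1-/-* mice the SD of log2(FPKM + 1) was larger under Ang II than under saline for *Egr2* (0.59 against 0.29), *Egr3*, *Ier3* and *Atf3* (1.04 against 0.40). It was smaller for the other members. When WT replicate 1 and *Plod1-/-* replicate 4 were both left out, an alternative chosen after the values were seen, 8 members were called higher in the interaction, all but *Egr3* and *Nr4a2*, and the value for *Egr1* was 4.34 (limma adjusted p = 2.41e-05). Without *Plod1-/-* replicate 4 alone, 4 members were called higher with Ang II in *Plod1-/-* mice, since *Egr1* (1.07, limma adjusted p = 0.0213) and *Ier2* joined *Egr2* and *Ier3*. Without WT replicate 1 alone, 5 members were called lower with Ang II in WT mice, since *Ier3* dropped out (-0.87, limma adjusted p = 0.0370). The labels give no time or order of harvest, so their part in this spread was not tested.

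**Figure D3:**
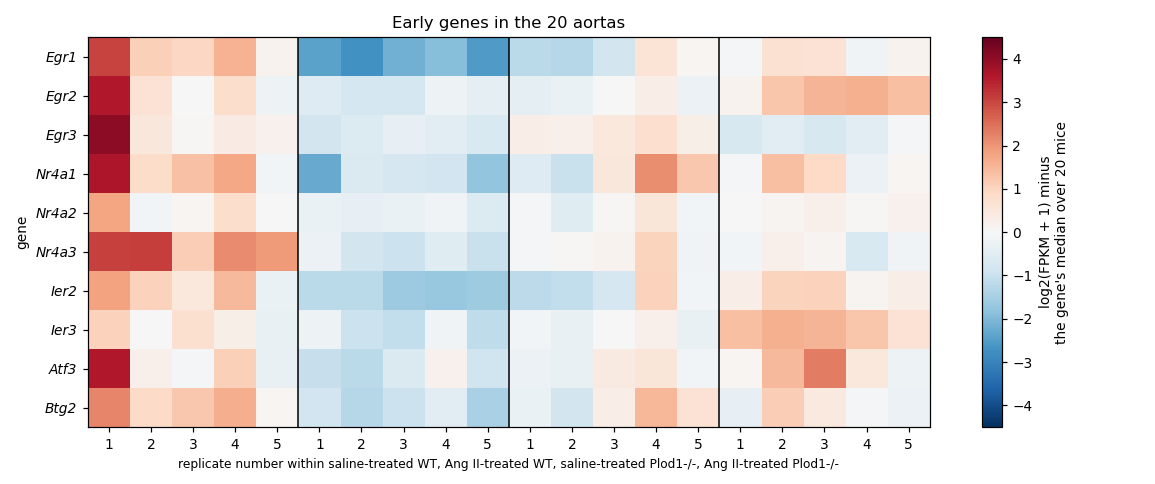
The 10 members (rows) in the 20 mice (columns, replicates 1 to 5 of each group), coloured by log2(FPKM + 1) minus the median of the gene over all mice, with red above and blue below the median. Saline-treated WT replicate 1 is the reddest column, and the 5 Ang II-treated WT columns are blue in *Egr1* and *Ier2*.

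Among 13253 other genes, those with a pattern over the 20 mice most like that of *Egr1* were other early response genes. By Pearson's r of log2(FPKM + 1), given as a description since mice of a group share their condition, they were *Klf6* (0.940), *Dusp1* (0.933), *Zfp36* (0.924), *Ccn1* (0.916) and *Fosb* (0.913). Between deviations from the group means, which leave out the differences between groups, r was 0.769, 0.806, 0.862, 0.849 and 0.787 in the same order. With *Nr4a1* the nearest were *Dusp1* (0.911), *Ccn1* (0.887), 1700016P03Rik (0.871), *Ppp1r15a* (0.851) and *Tulp2* (0.842). 1700016P03Rik is a noncoding transcript of chromosome 11 whose span holds the microRNA genes *Mir212* and *Mir132*. *Tulp2* overlaps *Ppp1r15a* on the opposite strand, and 1700016P03Rik, *Dusp1* and *Zfp36* also overlap genes on the opposite strand. The library kit did not mark strand, so reads of overlapping genes cannot be told apart where they overlap.

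The 28 other early genes listed here, chosen with earlier results of these data known, were counted in the same way. In WT mice 11 of 26 tested were lower with Ang II and none was higher, among them the AP-1 genes *Fos* (-5.03, SE 0.36, limma adjusted p = 0.000173), *Fosb* (-4.27, SE 0.34, limma adjusted p = 0.000257) and *Jun* (-2.15, SE 0.27, limma adjusted p = 0.00181). The median of the 26 was -0.96, against -1.92 over the 10 members and -0.14 over all genes tested. In *Plod1-/-* mice 11 of 27 were higher with Ang II, where 2 of the 10 members were, led by *Socs3*, a brake on cytokine signals (3.60, SE 0.37, limma adjusted p = 6.51e-05), and *Myc* (2.86, SE 0.11, limma adjusted p = 8.56e-07), and *Arc* was lower (-1.26, SE 0.44, limma adjusted p = 0.0379). Here the median was 1.00, against 0.46 over the members and 0.05 over all genes. Under Ang II 17 of 27 were higher in *Plod1-/-* than in WT mice, with a median of 1.58 against 1.60 over the members and 0.12 over all genes. Under saline *Fosb* alone was called, lower in *Plod1-/-* mice (-2.54, SE 0.60, limma adjusted p = 0.0353). The median under saline was -0.69, against -0.99 over the members and -0.007 over all genes. In the interaction 18 of 27 were higher, with *Fos* at 7.48 (SE 0.97, limma adjusted p = 3.91e-05). The smallest interactions among the members and these genes were those of *Maff* (0.16), *Jund* (0.30), *Arc* (0.35), *Rgs2* (0.50) and *Egr3* (0.72), none of them called.

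**Figure D4:**
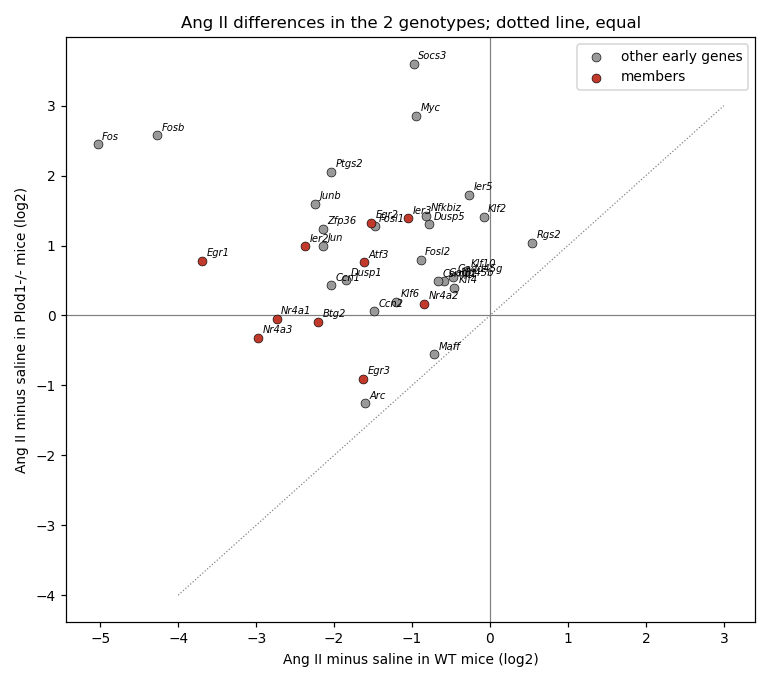
Log2 difference between Ang II and saline in WT mice (horizontal axis) and in *Plod1-/-* mice (vertical axis) for the members (red) and the other early genes tested in both (grey), with a dotted line where both are equal. All members lie above the line, and *Egr3* is the member nearest to it at -1.63 and -0.90.

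The factors that are known to drive early genes were read at the RNA level as well. Of 22 genes for serum response factor, CREB and MEF2 factors, their coactivators and the kinases above them, none was called with Ang II in WT mice or between the saline groups. The absence of a call is not the absence of a difference. *Srf*, the gene of serum response factor, ran from 10.6 to 13.2 FPKM in saline-treated WT mice. It ran from 14.6 to 26.5 FPKM in saline-treated *Plod1-/-* mice, without overlap. *Srf* was picked after its values were seen, and the share of all genes apart in this direction is not given. In the other direction 5.30% of all tested genes lay apart between these groups. In *Plod1-/-* mice the ETS factor *Elk3* (1.41, SE 0.17, limma adjusted p = 0.000139) and the kinase *Rps6ka1* (2.14, SE 0.41, limma adjusted p = 0.00211) were higher with Ang II, and the CREB coactivator *Crtc3* was lower (-1.10, SE 0.11, limma adjusted p = 6.06e-05), which is 2 higher and 1 lower of 22, beside 8.38% and 5.51% of all genes tested. *Rps6ka1* was the 1 gene of the 22 called between the genotypes under Ang II (1.52, SE 0.43, limma adjusted p = 0.0229) and in the interaction (1.35, SE 0.50, limma adjusted p = 0.0401). RNA levels do not report the phosphorylation through which these factors act. Of 6 partners of the EGR and NR4A proteins, 5 or fewer of which were tested in each comparison, the retinoid X receptor *Rxrg* was called higher with Ang II in WT mice (1.73, SE 0.32, limma adjusted p = 0.00355), and no other call was made in any comparison.

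Markers of other cell types moved with the same groups. In Ang II-treated *Plod1-/-* mice all 7 macrophage markers and 5 of 5 tested neutrophil markers were higher than in saline-treated *Plod1-/-* mice and than in Ang II-treated WT mice. The summed macrophage markers were at 128 to 246 FPKM in saline-treated WT, 200.3 to 1295 in Ang II-treated WT, 57.4 to 210.4 in the saline-treated knockout and 638 to 3724 in the Ang II-treated knockout mice. The summed neutrophil markers were at 2.89 to 58.2, 6.57 to 192, 1.35 to 3.02 and 156 to 723 FPKM in the same order. Ang II-treated *Plod1-/-* replicate 1, the lowest of its group in *Egr2*, *Egr3*, *Nr4a2* and *Btg2*, also had the lowest macrophage sum and the highest smooth muscle sum of its group. Replicate 4, the lowest of that group in *Egr1*, *Nr4a1*, *Nr4a3* and *Ier2* and the highest in *Egr2*, had a macrophage sum of 3706 FPKM. Ang II-treated WT replicate 1 had a macrophage sum of 1295 FPKM with *Egr2* at 1.16 FPKM. It was the highest of its group in *Nr4a3* and *Ier2* and the lowest in *Egr3* and *Nr4a1*. All 5 red cell markers were higher in Ang II-treated *Plod1-/-* mice in both comparisons, with sums of 151 to 1443, 185 to 666, 60.0 to 1523 and 763 to 9716 FPKM. Smooth muscle markers were lower with Ang II in 7 of 8 cases in *Plod1-/-* mice and in 2 of 8, *Tagln* and *Cnn1*, in WT mice, with sums of 14265 to 20604, 5588 to 17248, 15219.8 to 20895 and 2352 to 17063 FPKM.

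In WT mice, where the members were lower with Ang II, 6 of 6 tested adipocyte markers were higher, with sums of 90.1 to 526 FPKM under saline and 882 to 5089.7 under Ang II. In *Plod1-/-* mice these sums were 137 to 1722 and 452 to 3105 FPKM, and 2 of 7 markers were higher with Ang II. Of the skeletal muscle markers, 3 of 4 tested were higher with Ang II in WT mice, where the sum reached 302 FPKM, against at most 9.36 FPKM in any mouse of the other groups. The T cell markers stayed at or below 7.85 FPKM in sum in every mouse. Of 7 endothelial markers 3 were higher with Ang II in each genotype, but the sums over all 7 overlapped. These sums were 96.0 to 270 FPKM under saline and 124 to 200 under Ang II in WT mice. In *Plod1-/-* mice they were 54.0 to 159 and 42.0 to 170 FPKM. Of 7 fibroblast markers *Col1a1* and *Col3a1* were higher in Ang II-treated *Plod1-/-* mice than in either Ang II-treated WT or saline-treated *Plod1-/-* mice. A further fibroblast marker, *Pi16*, was lower in *Plod1-/-* than in WT mice under Ang II (-1.43, SE 0.20, limma adjusted p = 0.00153) and under saline (-1.13, SE 0.26, limma adjusted p = 0.0344). Nerve and Schwann markers summed to 3.47 to 8.21 FPKM under saline and 12.3 to 37.3 under Ang II in WT mice, without overlap, and to 6.03 to 18.1 and 8.87 to 44.4 FPKM in *Plod1-/-* mice, with overlap. Mitochondrial genes took 23.3% ± 5.78 (SD, n = 5) of all FPKM in Ang II-treated WT mice, against 11.1% ± 2.94, 13.4% ± 2.37 and 13.4% ± 4.57 in the saline-treated WT, the saline-treated knockout and the Ang II-treated knockout mice. With these genes left out and the libraries rescaled, 6, 2, 7, 1 and 8 members were called in the 5 comparisons in the order given above. The part of these other cells in the levels of the early genes was not tested.

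**Figure D5:**
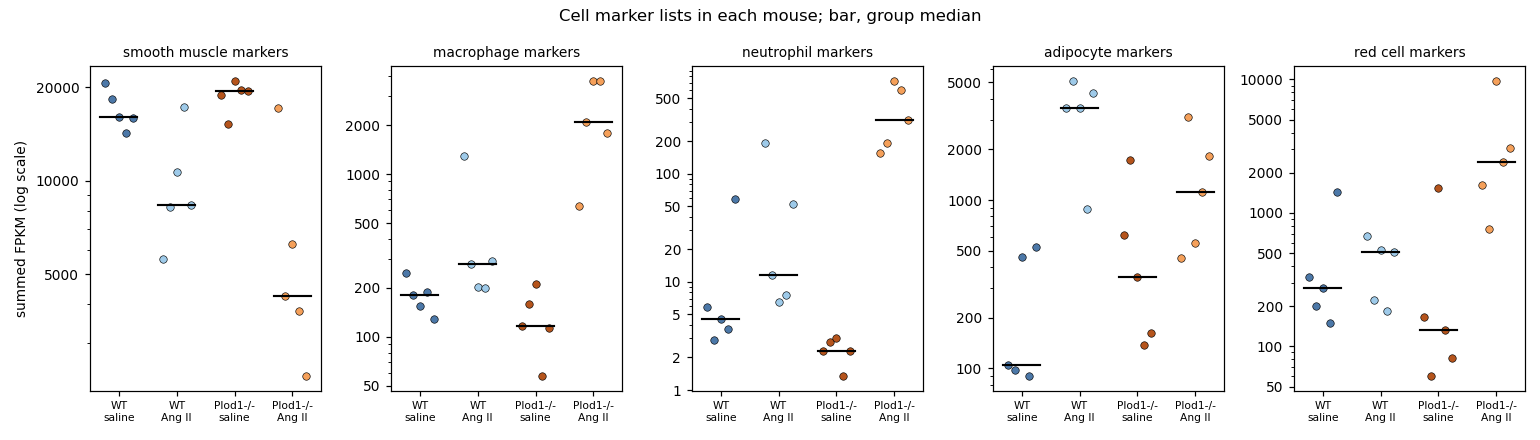
Summed FPKM of 5 marker lists in each mouse, on log axes, with 1 point per mouse in replicate order and a bar at the group median. Macrophage and neutrophil sums have their highest median in Ang II-treated *Plod1-/-* mice, and adipocyte sums have their highest median in Ang II-treated WT mice.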

How the data were processed

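The 20 samples were RNA-seq libraries of abdominal aorta, each taken as 1 mouse. After removal of ribosomal reads the authors aligned to mm10 with HISAT2 (the methods and the submitters' processing notes give different versions, the latter 2.1.0, and the notes also name Bowtie2 2.2.3 and HTSeq 0.6.0 with no role), assembled transcripts with stringtie, and obtained gene levels by cuffquant followed by cuffnorm with its default settings. The labels' protocol also names array labelling and hybridization kits, although the deposited values are FPKM. Each deposited file gives FPKM by Ensembl gene, normalized between libraries by the authors. No counts entered the analysis, so the absolute depth is unknown, only a relative depth was estimated, and no counting interval or detection limit is given.

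Symbols came from GENCODE M21 (GRCm38), which names 43226 of the 43422 genes. Groups and replicate numbers came from the sample titles. In each comparison, genes at 1 FPKM or more in 5 or more mice were transformed to log2(FPKM + 1) and fitted with limma 3.58.1 (R 4.3.3) and eBayes with a variance trend, over the 10 mice compared, or all 20 for the interaction. P-values were adjusted by Benjamini-Hochberg over all genes tested. Ratios between members were compared by exact two-sided permutation tests over mice (scipy 1.17.1). The fits were tested on simulated data with known changes. No pair of libraries was identical. No column was left unmapped. The alternatives were another pseudocount (0.1), no filter, a replicate block, no variance trend, weights per mouse, quantile normalization, mitochondrial genes left out, all groups in 1 fit, the adjusted p alone, the *Xist* libraries left out and each mouse left out in turn, and, chosen after seeing the data, both saline mice with the highest member levels left out.

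The members and the gene lists were chosen with earlier results of these data known. The genes named are the 10 members, *Plod1* and *Xist* as checks, genes of the lists, of which those called or with the largest or smallest values were named, and the 5 genes most like *Egr1* and the 5 most like *Nr4a1* by Pearson's r. *Mir212*, *Mir132* and Gm24748 were named after their place in the annotation was seen, and *Srf* after its values were seen.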

Additional observations from a re-analysis of the deposited data

Results flagged for a closer look

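Each member was checked in each of the 4 groups for a mouse that lay apart from the other 4 on the log2(FPKM + 1) scale, with Dixon's test at the 95% level. Of 40 such groups 4 held a mouse past the limit, where chance flags about 2. In saline-treated WT mice, replicate 1 was past the limit in *Egr2* at 37.7 FPKM and in *Egr3* at 55.0 FPKM, and the next highest mice were at 4.54 and 3.92 FPKM. In saline-treated *Plod1-/-* mice, replicate 4 was past it in *Nr4a3* at 6.00 FPKM. In Ang II-treated *Plod1-/-* mice, replicate 1 was past it on the low side in *Egr2*, at 2.54 FPKM against 6.54 to 8.78 FPKM in the other 4 mice. This last mouse also carried *Xist* RNA at 7.93 FPKM.

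The difference between Ang II and saline was not the same in the genotypes for 9 members by the test of the interaction in limma over 20 mice. The Ang II difference of *Plod1-/-* mice minus that of WT mice was 4.48 for *Egr1*, 2.84 for *Egr2*, 2.69 for *Nr4a1*, 1.01 for *Nr4a2* and 2.66 for *Nr4a3* on the log2 scale. It was 3.35 for *Ier2*, 2.44 for *Ier3*, 2.38 for *Atf3* and 2.12 for *Btg2*. The adjusted p ran from 5.25e-05 for *Egr1* to 0.0426 for *Nr4a2*. The *Nr4a2* difference was the least stable of these and was lost in 14 of 20 fits that left out 1 mouse, among them those without saline-treated WT replicates 1 and 4.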

How the results depend on the processing

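Over the alternatives, 1021 values of single members kept their direction and their side of the threshold, 40 lost a call, 22 gained one and 17 changed sign, none of the last in a comparison where the member was called. With each mouse left out in turn, the members called numbered 5 to 8 for Ang II in WT mice, 2 to 4 for Ang II in *Plod1-/-* mice (4 without saline-treated *Plod1-/-* replicate 4), 5 to 7 between the Ang II groups, 1 to 2 between the saline groups (2 without saline-treated WT replicate 5) and 7 to 9 in the interaction. For Ang II in WT mice 9 members were called with a pseudocount of 0.1 and 9 with all 4 groups in 1 fit, *Egr2* and *Egr3* joining in both, and 8 with weights per mouse. In the interaction 6 were called with no filter. With the adjusted p alone, *Egr3* in *Plod1-/-* mice and *Nr4a2* and *Nr4a3* between the Ang II groups were added, and all genes called in the 5 comparisons numbered 4560, 5408, 3849, 786 and 5017 in place of 1039, 1714, 1373, 92 and 2129. Between the saline groups 0 members were called with no filter, where 40080 genes were tested in place of 11999, and 2 with all 4 groups in 1 fit. Between these groups all genes called numbered 92, and 149 with a pseudocount of 0.1, 41 with no filter, 52 with all groups in 1 fit, 60 without the *Xist* library, 32 without both highest saline mice and 38 to 104 with each mouse left out. Between the Ang II groups they numbered 1373, and 2134 with weights per mouse. Quantile normalization turned *Nr4a2* under Ang II in *Plod1-/-* mice to -0.0117 and *Egr3* between the Ang II groups to -0.11. Without the *Xist* libraries, *Nr4a1* and *Btg2* under Ang II in *Plod1-/-* mice turned to 0.27 and 0.13, and with each mouse left out they ran from -0.41 to 0.36 and from -0.36 to 0.22. *Egr3* between the saline groups turned to 0.0306 without both highest saline mice and ran from -0.88 to 0.12 with each mouse left out, and it ran from -0.0191 to 0.15 between the Ang II groups and from -0.0252 to 0.97 in the interaction. The cause of these changes was not tested. Over 30 pairs of samples with the same replicate number in different groups, the median correlation of their deviations was -0.07, and 8 pairs were above 0.1. Over 120 pairs with different numbers the median was 0.001, and 41 pairs were above 0.1. Of 20 mice, 5 were best matched by their own number. These values cannot show whether samples of the same number shared a batch or a pairing, and none is stated. With a replicate block, the members called numbered 6, 2, 7, 1 and 9 as without it, and all genes called moved from 1039 to 1026 and from 1714 to 1717 for Ang II in WT and *Plod1-/-* mice, from 1373 to 1129 and from 92 to 63 between the Ang II and the saline groups, and from 2129 to 2094 in the interaction. Absolute depth being unknown, the precision of low FPKM values could not be given.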
